A study of Prunus dulcis and Prunus persica and Prunus persica x Prunus dulcis with 15 samples.

Results

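The 9 families described here, TIR_3304, TIR_3706, TIR_8712, TIR_9813, TIR_10158, TIR_12324, TIR_11258, TIR_1970 and TIR_11800, are DNA transposons of the terminal inverted repeat (TIR) class, chosen by name from the deposited table of transcript counts. They are 9 of its 22334 features, which comprise 22274 gene models and 60 transposable element (TE) families, 21 of them TIR families. The plants were the interspecific F1 hybrid MB 1.37 and its parents, almond (Prunus dulcis) cv Texas and peach (Prunus persica) cv Early Gold. Fully expanded leaves came from field-grown trees under normal watering in late September, so all groups share tissue, season and water status, and the hybrid is a single F1 genotype. RNA was sequenced in 3 libraries per genotype, labelled biological replicates, and bisulphite-treated DNA in 2 per genotype. The comparisons address whether bringing the parental genomes together in a hybrid changed the transcription or the DNA methylation of these elements.

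TIR transposons move by cut and paste: a transposase recognises the inverted repeats at the ends of the element, excises it and inserts it elsewhere. Copies that lack a working transposase can be moved by the enzyme of another copy, and most copies in a plant genome are held silent by cytosine methylation. In plants, methylation of CG sites is kept through replication by MET1, that of CHG sites (H is any base but G) by CMT3, and that of CHH sites by CMT2 and the RNA-directed pathway. Silenced transposons usually carry methylation in all of these contexts, whereas the bodies of many expressed genes carry it in CG alone.

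The transcript level of a family was measured as the reads aligned, in the sense orientation, to a single representative copy, the genomic copy most similar to an assembled contig. The representatives of TIR_3304, TIR_3706, TIR_8712, TIR_9813, TIR_10158 and TIR_1970 come from the peach genome, and those of TIR_12324, TIR_11258 and TIR_11800 from the almond genome. Libraries held 23452646 to 32140448 counts in the hybrid, 14971526 to 35450910 in almond and 30385356 to 31993702 in peach, and every count was even, so that a read pair counts as 2. The 9 families were rare transcripts. They took 754 to 1052 counts per library in the hybrid, 812 to 1640 in almond and 988 to 1186 in peach, which was 6.65% to 7.05% of all TE counts in the hybrid, 7.23% to 7.68% in almond and 10.9% to 14.0% in peach. Levels are given in CPM, the usual unit of counts relative to library size, after scaling of the library sizes, with the SD over 3 libraries. In leaf tissue as a whole, fewer cells with a transcript and less transcript per cell cannot be told apart, and leaf marker genes could not be checked by name because the gene identifiers used here carry no symbols.

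The families fell into several patterns. TIR_11258 and TIR_11800 were abundant in almond, intermediate in the hybrid, and near or below detection in peach. TIR_1970 was present in the hybrid and in peach and had no read in almond. TIR_3706, the family with the highest CPM in both parents before copy length is taken into account, was lower in the hybrid than in almond. Its hybrid libraries also lay below those of peach without passing the test. The other 5 families passed no test between genotypes.

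**Figure D1:**
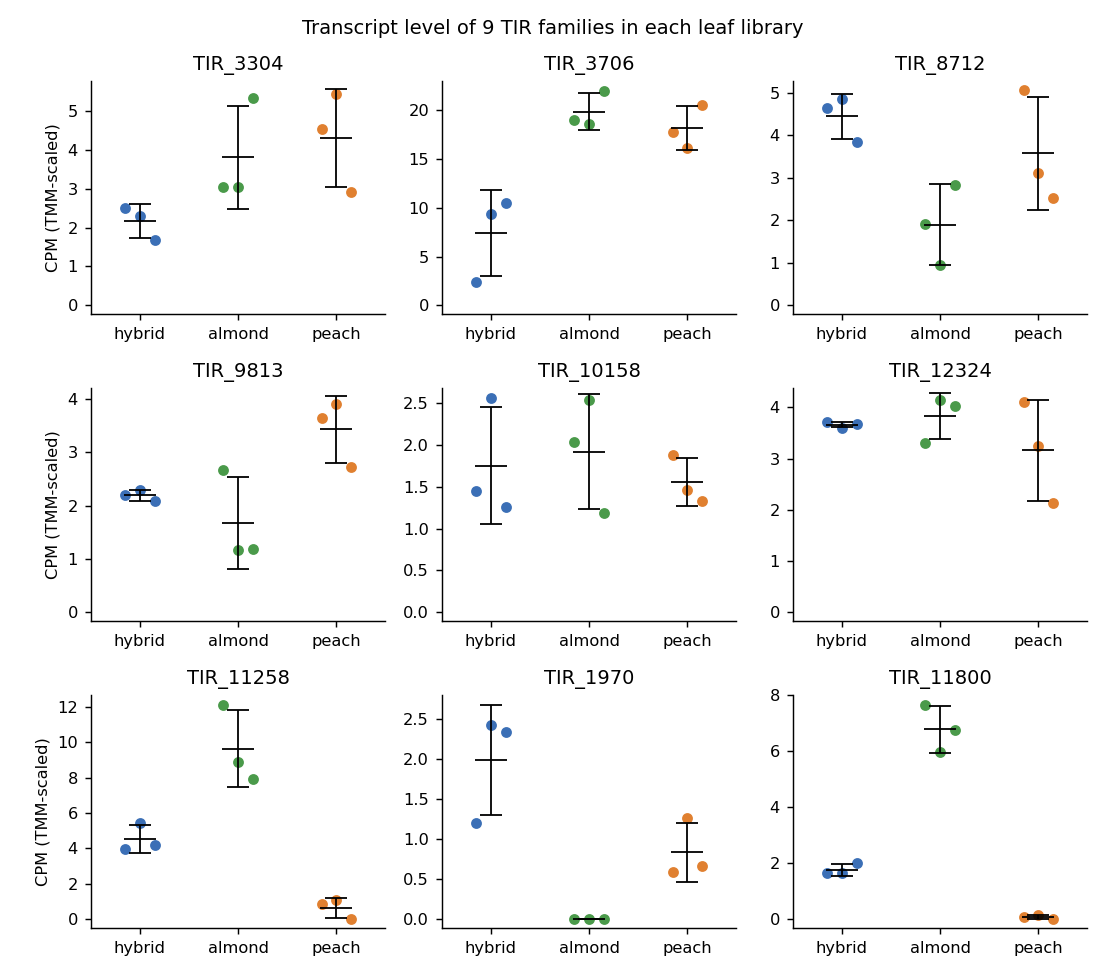
Transcript level of each family in CPM (vertical axis, a separate scale per panel) in the 3 libraries of the hybrid, almond and peach; points are libraries in replicate order, and the horizontal mark and bar are the mean and SD. TIR_1970 is at 0 in all 3 almond libraries, and the 3 hybrid libraries of TIR_3706, at 2.39 to 10.5 CPM, sit below every library of both parents.

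Calls required both a log2 fold change of 1 or more in size and an adjusted p under 0.05 in the quasi-likelihood test of edgeR, with p-values adjusted (Benjamini-Hochberg) over all 19085 features that passed the filter on low counts. All 9 families passed that filter. Between the hybrid and almond, 1 of the 9 families was higher in the hybrid (TIR_1970), where 5.62% of all features were, and 2 were lower (TIR_3706 and TIR_11800), where 1.99% of all features were. Between the hybrid and peach, 2 families were higher in the hybrid (TIR_11258 and TIR_11800), where 5.20% of all features were, and 0 were lower, where 2.31% were. In that direction 2 families had an unadjusted p under 0.05 (TIR_3304 and TIR_3706), and DESeq2 called 1, TIR_3706. In either direction, DESeq2 called 1827 of the 19085 features between the hybrid and peach. Between the parents, 2 families were higher in almond (TIR_11258 and TIR_11800), where 10.3% of all features were, and 1 was lower (TIR_1970), where 11.2% were. These comparisons share libraries, so their counts are not independent of each other. The median log2 fold change of the 9 families was −0.14 for the hybrid against almond, 0.21 for the hybrid against peach and 0.13 for almond against peach, beside medians of −0.0024, −0.012 and −0.0024 over all features.

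**Figure D2:**
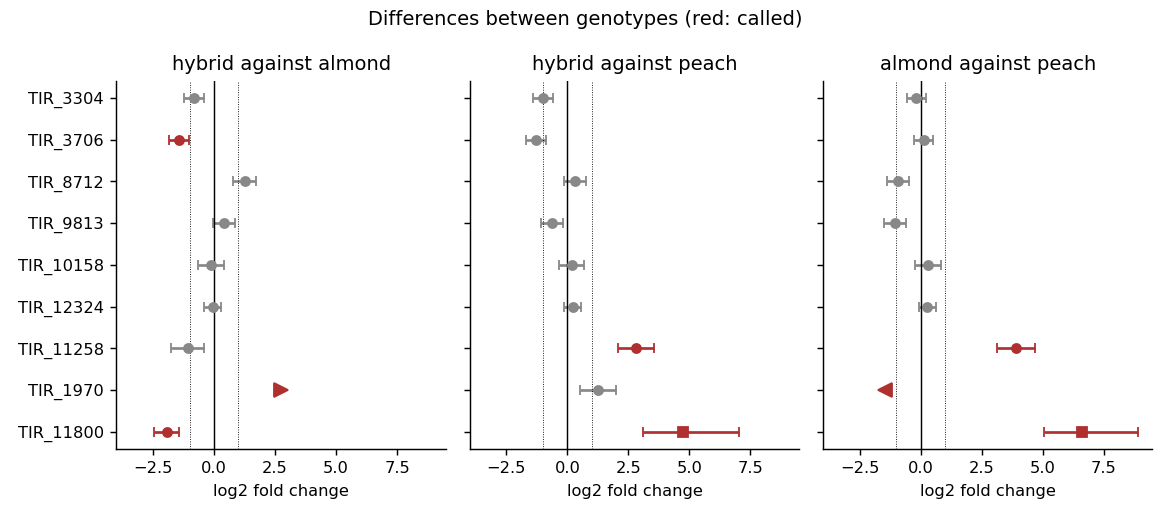
Log2 fold change of each family (rows) in 3 comparisons (panels), with red for called families and grey for the others; circles with bars are edgeR estimates ± SE, squares with bars are ratios with 95% counting intervals where peach held 3 read pairs, and triangles are lower bounds where almond held no read. Dotted lines mark a log2 fold change of 1 in size; the called families are TIR_3706, TIR_1970 and TIR_11800 in the first panel, TIR_11258 and TIR_11800 in the second, and TIR_11258, TIR_1970 and TIR_11800 in the third.

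TIR_11800 was all but absent from peach. Its level was 1.63, 1.64 and 2.00 CPM in the hybrid libraries, 7.64, 5.96 and 6.75 CPM in the almond libraries, and 0.065, 0.133 and 0 CPM in the peach libraries. No library of one genotype overlapped with those of another. In read pairs, 75 were counted over the hybrid libraries, 225 over the almond libraries and 3 over the peach libraries, and a genotype with at most 3 read pairs in each library is taken here as not detected. The ratio to peach was 26.4 in the hybrid, with a 95% counting interval of 8.68 to 131, and 99.1 in almond, with an interval of 33.5 to 484 (edgeR adjusted p = 0.00101 and 2.73e-05). These intervals cover counting error only. Against almond, the hybrid was lower by a log2 fold change of −1.94 ± 0.51 (SE; edgeR adjusted p = 0.0320), and its mean, 1.76 ± 0.212 CPM, was 51.4% of the linear mean of the parents. This call against almond rests on all of the libraries: when any one of the 6 was left out, the adjusted p lay between 0.0673 and 0.118, while the log2 fold change stayed between −2.02 and −1.82.

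TIR_11258 had the same order of genotypes. It reached 3.96, 5.44 and 4.17 CPM in the hybrid libraries, 12.1, 8.88 and 7.93 CPM in the almond libraries, and 0.845, 1.06 and 0 CPM in the peach libraries. The hybrid libraries lay between those of the parents without overlap. The hybrid was higher than peach by a log2 fold change of 2.82 ± 0.74 (SE; edgeR adjusted p = 0.0319), and almond was higher than peach by 3.91 ± 0.77 (adjusted p = 0.00238). Against almond the hybrid's log2 fold change was −1.09 ± 0.67 and did not pass (adjusted p = 0.362). The hybrid mean, 4.52 ± 0.798 CPM, was 88.1% of the linear mean of the parents. The call against peach was lost without hybrid library 1, 2 or 3 or peach library 1, with adjusted p over the 6 libraries left out in turn between 0.00334 and 0.0921, and log2 fold changes between 2.24 and 3.40.

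TIR_1970 was the reverse case, with no read in almond. Its level was 1.19, 2.42 and 2.34 CPM in the hybrid libraries, 0 in every almond library, and 0.585, 1.26 and 0.666 CPM in the peach libraries. Over the libraries, 84 read pairs were counted in the hybrid, 0 in almond and 38 in peach. With the almond level set at the 3 read pairs per library that a count of 0 allows, the hybrid was at least 6.60-fold higher than almond (edgeR adjusted p = 0.00232), and peach was at least 2.78-fold higher than almond (adjusted p = 0.00207). Both calls stayed when each library was left out in turn. The hybrid mean, 1.99 ± 0.686 CPM, stood above the peach mean, 0.837 ± 0.369 CPM, but the libraries overlapped and the log2 fold change of 1.24 ± 0.74 did not pass (adjusted p = 0.349).

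In each of these 3 families the representative copy belongs to the genome of the parent with the higher level: almond for TIR_11258 and TIR_11800, peach for TIR_1970. Whether mismatches with that copy lowered the counts of the other parent was not tested. In the other 6 families no difference between the parents was called, and TIR_12324, with an almond representative, had 3.66 ± 0.0538 CPM in the hybrid, 3.82 ± 0.449 CPM in almond and 3.16 ± 0.985 CPM in peach.

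TIR_3706 had the highest CPM of the 9 families in both parents, and was the family in which the hybrid stood lowest relative to the mean of the parents. Its level was 2.39, 9.37 and 10.5 CPM in the hybrid libraries, 19.0, 18.6 and 22.0 CPM in the almond libraries, and 17.8, 16.2 and 20.6 CPM in the peach libraries. Every hybrid library lay below every parental library, while those of the parents overlapped. The hybrid mean of 7.43 ± 4.40 CPM was 39.0% of the mean of the parents. The log2 fold change was −1.42 ± 0.41 against almond (SE; edgeR adjusted p = 0.0455) and −1.30 ± 0.40 against peach, which did not pass (adjusted p = 0.0633); between almond and peach it was 0.13 ± 0.39 (adjusted p = 0.835).

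Hybrid library 1 carried much of that difference. Without it the log2 fold change of TIR_3706 was −0.96 against almond and −0.84 against peach, short of the fold minimum, although the adjusted p was then 0.0143 against almond and 0.0292 against peach in edgeR. The call against almond was also lost without hybrid library 2 or any almond library, and kept without hybrid library 3. Over the 6 libraries left out, the adjusted p against almond lay between 0.0143 and 0.114. Library 1 was not low for the sum of the other families: without TIR_3706, the members summed to 21.3 CPM in it, against 25.1 and 21.0 CPM in hybrid libraries 2 and 3. By family, it was the lowest hybrid library for TIR_1970, TIR_11258 and TIR_11800, and the highest for TIR_3304 and TIR_12324. The gap was widest in TIR_1970, at 1.19 CPM beside 2.42 and 2.34 CPM.

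TIR_3304 resembled TIR_3706 in where the hybrid stood, without passing a test. It had 2.51, 2.29 and 1.67 CPM in the hybrid libraries, 3.06, 3.03 and 5.33 CPM in the almond libraries, and 4.55, 5.44 and 2.93 CPM in the peach libraries. The hybrid libraries lay below those of both parents, and the mean was 53.2% of the mean of the parents. The log2 fold change was −0.81 ± 0.40 against almond (adjusted p = 0.244) and −0.99 ± 0.40 against peach (adjusted p = 0.149).

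TIR_8712 and TIR_9813 stood higher in peach than in almond by their means, again without a call. TIR_8712 had 4.65, 4.85 and 3.84 CPM in the hybrid libraries, 1.91, 0.938 and 2.84 CPM in the almond libraries, and 5.07, 3.12 and 2.53 CPM in the peach libraries. Its hybrid libraries lay above those of almond and overlapped with those of peach, with log2 fold changes of 1.25 ± 0.46 (adjusted p = 0.117) and 0.32 ± 0.45 (adjusted p = 0.725). TIR_9813 had 2.20, 2.29 and 2.09 CPM in the hybrid libraries, 2.67, 1.16 and 1.18 CPM in the almond libraries, and 3.64, 3.91 and 2.73 CPM in the peach libraries. Its log2 fold change for almond against peach was −1.05 ± 0.46 (adjusted p = 0.106), and it was called when almond library 1, the highest of the almond libraries, was left out (−1.55, adjusted p = 0.0307, with 0.0307 to 0.235 over the libraries left out) and when TE families were tested on their own (adjusted p = 0.0335).

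TIR_10158 and TIR_12324 had overlapping libraries in all genotypes. TIR_10158 averaged 1.75 ± 0.703 CPM in the hybrid, 1.92 ± 0.685 CPM in almond and 1.56 ± 0.290 CPM in peach (n = 3 libraries each). The hybrid stood at 101% of the mean of the parents for TIR_10158 and at 105% for TIR_12324. Their log2 fold changes for the hybrid lay between −0.14 and 0.21 against either parent, with SE of 0.35 to 0.53, and neither family was called in any comparison.

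The hybrid was also set against the average of the parental log2 levels, where 3.50% of all features were higher in the hybrid and 0.466% were lower. Among the 7 families detected in both parents by more than the floor, 0 were called by edgeR. Of these, 2 had an unadjusted p under 0.05 (TIR_3304 and TIR_3706), and DESeq2 called 1, TIR_3706. Over all 19085 features, DESeq2 called 1035 in either direction. The log2 difference of TIR_3706 was −1.36 ± 0.37 (SE; edgeR adjusted p = 0.0583), and its adjusted p in DESeq2 was 0.00362. TIR_1970 and TIR_11800 were not read here, since a log2 mean with an undetected parent depends on the constant added to the counts.

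Summed over the 9 families, transcripts reached 29.9 ± 5.57 CPM in the hybrid, 49.4 ± 3.61 CPM in almond and 35.7 ± 2.83 CPM in peach (n = 3 each), and TIR_3706 made up 23.5% of the sum in the hybrid, 40.3% in almond and 51.3% in peach. Without TIR_3706 the sums were 22.5 ± 2.27 CPM in the hybrid, 29.5 ± 3.05 CPM in almond and 17.6 ± 4.57 CPM in peach. Per kilobase of the representative copy, which allows families to be compared, TIR_11258 stood highest in the hybrid at 5.64 ± 0.996 CPM per kb and in almond at 12.0 ± 2.72, while in peach TIR_3706 at 3.54 ± 0.431 and TIR_12324 at 3.50 ± 1.09 CPM per kb stood together at the top. TIR_3304 was lowest per kilobase in the hybrid, at 0.515 ± 0.105 CPM per kb. Of the 8 other TIR families in the study's list of representative copies, 6 could be tested with edgeR. Of these, 1 was higher in the hybrid than in almond, where 5.62% of all features were. Also, 1 was higher in the hybrid than in peach, where 5.20% of all features were. Between the parents, 2 were higher in almond, where 10.3% of all features were, and 1 was lower, where 11.2% were. DESeq2 called 1 of these 6 for the hybrid against almond, 3 for the hybrid against peach and 4 for almond against peach. Over all 19085 features, DESeq2 called 1868, 1827 and 4495 in the same comparisons.

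The likeness between families was described by Pearson's r of log2(CPM + 1) over the 9 libraries. These libraries differ in genotype and depth, and those differences are common to all families, so r is given without a test. The TE family nearest to TIR_11800 was LTR_141 with r = 0.990, and the one nearest to TIR_11258 was LINE_5760 with r = 0.977. TIR_8712 and TIR_1970 were both nearest to LTR_3, with r = 0.901 and 0.884. For TIR_3706 the nearest was LTR_5 with r = 0.709, and for TIR_3304 MITE_127 with r = 0.594.

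Among the genes of DNA methylation listed by the study, only the RNA-dependent RNA polymerase genes were called between genotypes. Of the 4 DNA methyltransferase genes listed by the study, 3 could be tested and 0 were called by edgeR or DESeq2 between any pair of genotypes, and the same held for the 3 demethylase genes. At an unadjusted p under 0.05, edgeR had 1 methyltransferase gene for the hybrid against almond, and 1 methyltransferase and 1 demethylase gene for almond against peach. The methyltransferase gene between the parents, Prupe.8G038800.1, also passed after adjustment (adjusted p = 0.00923) and missed only the fold minimum, with a log2 fold change of 0.87 ± 0.22. Of the 2 RNA-dependent RNA polymerase genes, enzymes that copy RNA into double strands from which small RNAs are made, Prupe.1G332600.1 was lower in the hybrid than in almond (log2 fold change −2.65 ± 0.73 SE, edgeR adjusted p = 0.0404). Against peach its log2 fold change was −1.94 ± 0.72 and did not pass (adjusted p = 0.119). The other gene, Prupe.1G334500.1, did not pass in edgeR. Its log2 fold change was −2.01 ± 0.62 against almond (edgeR adjusted p = 0.0642) and −1.76 ± 0.62 against peach (adjusted p = 0.0984). DESeq2 called both polymerase genes in the hybrid against either parent, and the paper reports both as lower in the hybrid.

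Methylation was given as 1 percentage per annotated copy, cytosine context and genotype, pooled over the 2 bisulphite libraries of a genotype. It therefore has no replicate error, its depth is unknown, and differences are descriptions without a test. The paper reports that bisulphite conversion, measured on the chloroplast genome, was not complete in any genotype. Values of a few percent, and ranks or differences among them, can therefore include unconverted cytosines. Reads of the hybrid were mapped once to the almond and once to the peach genome, so a hybrid value on a peach copy can include reads of the almond allele, and the reverse. The representative copies lie at Pp02:17674004-17678195 (TIR_3304), Pp08:2311416-2316556 (TIR_3706), Pp03:26436134-26437798 (TIR_8712), Pp04:3988647-3989868 (TIR_9813), Pp03:20048279-20048978 (TIR_10158) and Pp06:15348990-15349847 (TIR_1970) in the peach genome. In the almond genome they lie at Pd05:811007-811908 (TIR_12324), Pd03:6438231-6439032 (TIR_11258) and Pd06:9677043-9679485 (TIR_11800). The version of either genome build is not given in the sources used here, and the genes around the copies were not annotated here.

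Most of the representatives carried methylation in CG but almost none in CHG. Whether the representative is the copy that gave the transcripts of its family was not tested. In the parent whose genome holds the copy, 6 of the 9 representatives had a CHG level under 5%, namely TIR_8712 (1.04%), TIR_9813 (1.77%), TIR_10158 (0.969%), TIR_12324 (0.600%), TIR_11258 (2.63%) and TIR_11800 (2.11%), while their CG level was 80.9% to 92.1%. The remaining representatives had 73.7% (TIR_3304), 40.1% (TIR_1970) and 20.9% (TIR_3706) in CHG. CHH methylation was at most 3.33% in all representatives but TIR_3304, which had 13.3%. The 5% limit was set after the values were seen, and a limit of 10% or the use of hybrid values gave the same count of 6.

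Other copies of the same families in the same genome were mostly methylated in CHG. Copies were assigned to a family by the consensus number in their name, which gave 73 copies, from 4 in TIR_3304 and TIR_1970 to 17 in TIR_11800. Only the genome that holds the representative was searched, so copies of a family in the genome of the other parent are not covered. Of the 64 copies that are not representatives, 62 had a CHG value, 10 of these (16.1%) lay under 5%, and their median was 63.8%, against a median of 2.11% over the 9 representatives. Among all copies named from a consensus, 9.53% of 5489 in almond and 10.4% of 5605 in peach were under 5%. Representatives are mostly short, and among copies under 2500 bp the shares were 17.5% in almond and 21.0% in peach. Low CHG was also seen in representatives of other classes, in 10 of 16 LINE and 3 of 7 other TIR representatives, but in 1 of 12 LTR representatives. These counts take low CHG at any CG level. CG was over 60% in all 6 low-CHG representatives of the 9 families, but in 4 of the 10 low-CHG other copies. Among low-CHG consensus copies it was over 60% in 175 of 523 in almond and 217 of 584 in peach. Among the low-CHG representatives of other families, CG was over 60% in 3 of 10 LINE, 2 of 3 TIR and 1 of 1 LTR.

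**Figure D3:**
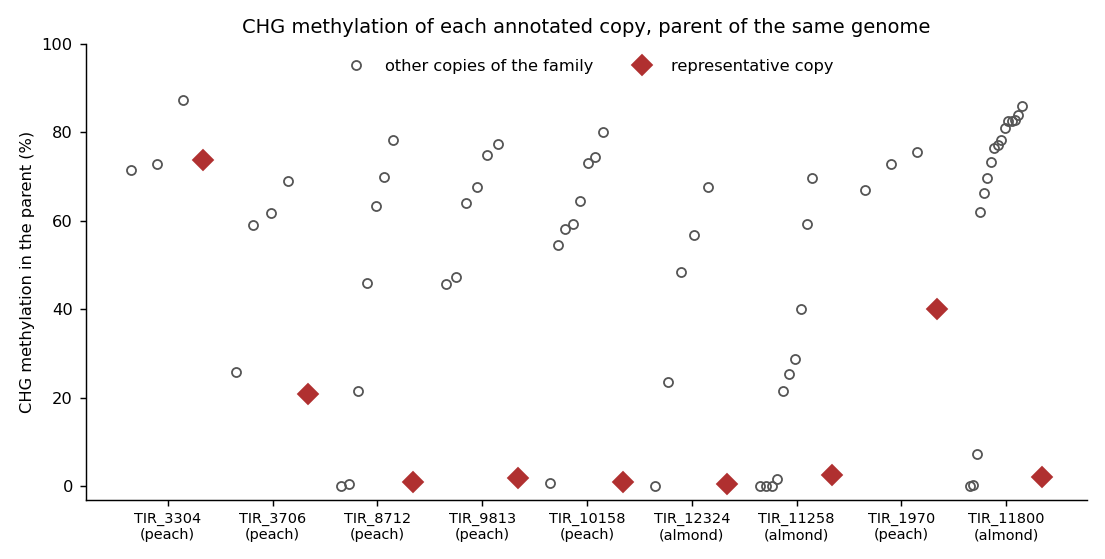
CHG methylation in percent (vertical axis) of each copy of the 9 families annotated in the genome that holds the representative, in the parent of that genome. Red diamonds are the representative copies and open circles the other copies of the family in that genome, ordered by value. Of the 9 diamonds 6 lie under 5%, while the median of the open circles is 63.8%.

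Within families the contrast was sharpest in TIR_9813, whose representative had 1.77% CHG methylation in peach, while its 6 other copies had 45.8% to 77.3%. In TIR_3706 and TIR_1970 the representative was also the lowest of the family's copies in the peach genome. It had 20.9% beside 26.0% to 69.0% in TIR_3706, and 40.1% beside 67.0% to 75.6% in TIR_1970. In TIR_10158 it was the second lowest of 9 and in TIR_12324 the second lowest of 6. In other families the representative did not stand apart in CHG. In TIR_8712, 2 of the other copies were also under 5% and the representative was the third lowest of 8, and in TIR_11258, 4 of the other copies were under 5% and it was the fifth lowest of 11. Those 4 copies of TIR_11258 were also low in CG, at 0.586% to 11.8% in almond, against 91.1% in the representative. In TIR_3304 the representative lay inside the 71.6% to 87.3% in CHG spanned by the other copies. In TIR_11800, 3 neighbouring copies on one stretch of Pd06, from 9665354 to 9701791, had low CHG methylation in almond (0%, 2.11% for the representative and 7.33%), and 13 of the other 14 copies had 62.1% or more.

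The hybrid kept the pattern of low CHG methylation in the same 6 representatives, which had 0% to 3.11% there. In CG, the representatives in the hybrid lay within 10 percentage points of the parent for TIR_3304, TIR_3706, TIR_8712, TIR_9813, TIR_12324 and TIR_11258. TIR_1970 had 24.1% in the hybrid and 70.2% in peach in CG, and 14.4% in the hybrid and 40.1% in peach in CHG. TIR_10158 had 51.2% in the hybrid and 80.9% in peach in CG, and TIR_11800 had 78.2% in the hybrid and 92.1% in almond. TIR_3706 went the other way in CHG, with 47.2% in the hybrid and 20.9% in peach, beside 88.2% in the hybrid and 85.8% in peach in CG.

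**Figure D4:**
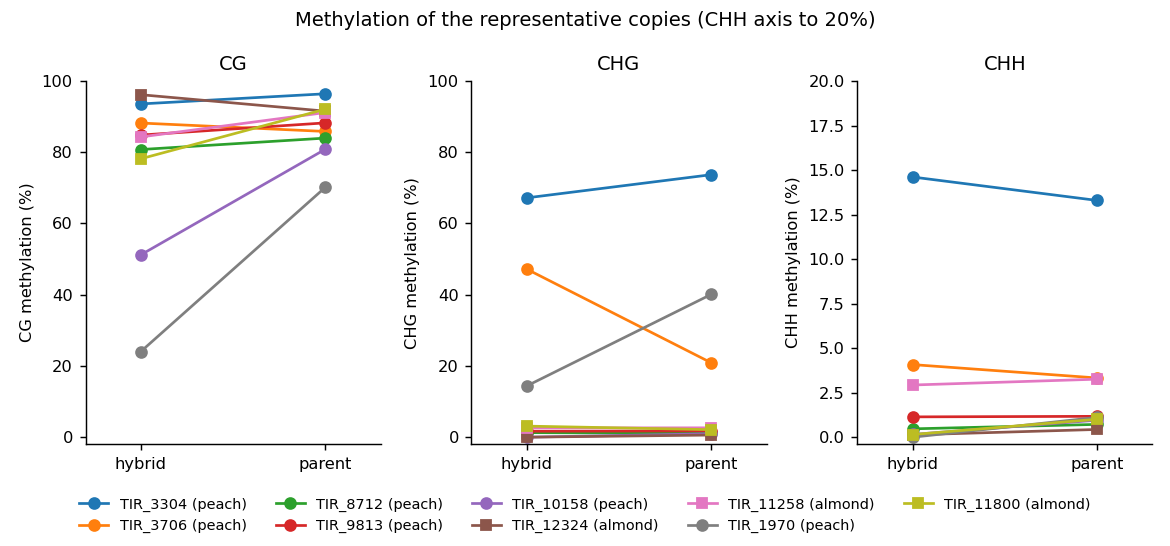
Methylation of the representative copies in percent (vertical axis, to 100% for CG and CHG and to 20% for CHH) in the hybrid and in the parent whose genome holds the copy; each line is a family, with circles for copies of the peach genome and squares for copies of the almond genome. TIR_1970 and TIR_10158 have the lowest CG values in the hybrid, 24.1% and 51.2%, and TIR_3706 and TIR_1970 change in opposite directions in CHG.

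Set beside the transcript levels, the families did not follow a single relation. TIR_1970, with the lower methylation of its representative in the hybrid than in peach, had 1.99 ± 0.686 CPM in the hybrid, against 0.837 ± 0.369 CPM in peach. TIR_3706, with the higher CHG methylation in the hybrid, had 7.43 ± 4.40 CPM in hybrid libraries and 18.2 ± 2.22 CPM in peach libraries. TIR_10158, whose CG methylation differed by −29.6 points (hybrid minus peach), had 1.75 ± 0.703 CPM in hybrid libraries, against 1.56 ± 0.290 CPM in peach libraries. None of these differences from peach in transcript level passed the test. TIR_11800, with 78.2% CG methylation in the hybrid and 92.1% in almond, was lower in the hybrid than in almond in transcript level, and with 1 methylation value per genotype no link between the measures was tested.

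Mean CG and CHG methylation was higher in the hybrid than in almond over the almond copies, and lower than in peach over the peach copies. These are different families: the almond copies belong to TIR_12324, TIR_11258 and TIR_11800, and the peach copies to the others. Parent and family can therefore not be told apart here. On the almond copies the mean, hybrid minus almond, differed by 5.88 percentage points in CG (82.9% in the hybrid, 77.0% in almond), by 5.77 in CHG (48.6% in the hybrid, 42.9% in almond) and by 0.809 in CHH. The median copy differed by 1.51 points in CG and 0.149 in CHG, and 13 of 32 copies (40.6%) were lower in the hybrid in each of these contexts, beside 53.2% in CG and 52.3% in CHG of all almond copies named from a consensus. The difference depended on how copies were combined: weighted by copy length the difference was 1.66 points in CG and 2.33 in CHG, and the medians of the genotypes differed by 0.650 points in CG and 8.81 in CHG. On the peach copies the mean difference, hybrid minus peach, was −3.64 points in CG (86.1% in the hybrid, 89.7% in peach), −2.76 in CHG (49.2% in the hybrid, 52.0% in peach) and 0.273 in CHH. Here 26 of 33 copies (78.8%) were lower in the hybrid in CG and 23 of 32 (71.9%) in CHG, beside 80.1% and 79.9% of all peach copies named from a consensus.

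**Figure D5:**
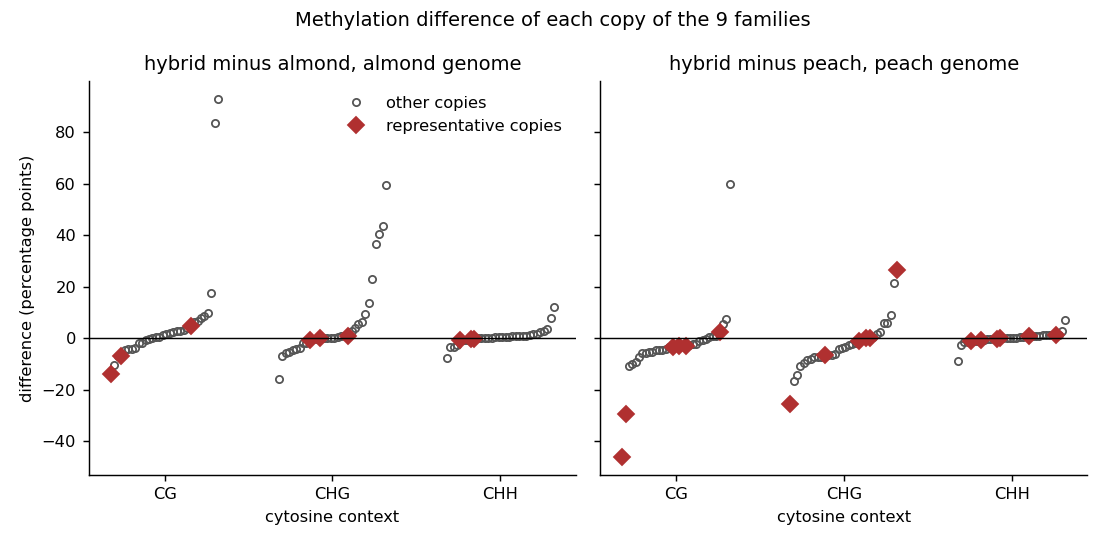
Difference in methylation, hybrid minus parent, in percentage points (vertical axis) for each copy, by cytosine context. Copies of TIR_12324, TIR_11258 and TIR_11800 are on the almond genome (left), and copies of the other families described are on the peach genome (right). Red diamonds are representative copies and open circles other copies, ordered by value. Most copies lie near 0, and the 2 highest circles in CG on the almond genome, at 92.9 and 83.4 points, are copies of TIR_11258.

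Differences of more than 30 points were found in 6 copies, in CG for 4 of 65 and in CHG for 4 of 64 copies with both values. Of the 6 copies, 4 belonged to TIR_11258, and the representative of TIR_1970 described above was the only one lower in the hybrid. The copy of TIR_11258 at Pd01:33384031-33385052 had 94.3% CG methylation in the hybrid and 1.39% in almond, with 61.0% in the hybrid and 1.56% in almond in CHG. Its copy at Pd07:2262133-2264362 had 95.2% in the hybrid and 11.8% in almond in CG, and 43.6% in the hybrid and 0% in almond in CHG. At Pd02:9638483-9640009 and Pd07:10160484-10161146, other copies of the family had 61.8% and 62.1% CHG methylation in the hybrid, against 21.5% and 25.4% in almond, with CG above 80% in both genotypes. In TIR_8712, the copy at Pp01:24071266-24072648 had 84.5% CG methylation in the hybrid and 24.7% in peach. By genome, such differences were found in 6.25% of the 32 almond copies in CG and 12.5% in CHG, beside 2.33% and 1.72% of all almond copies named from a consensus, and in 6.06% of the 33 peach copies in CG and 0 of 32 in CHG, beside 1.98% and 1.97% of all such peach copies. The representative copy of TIR_11258 was not among them, with 84.3% in CG and 2.60% in CHG in the hybrid, against 91.1% and 2.63% in almond.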

How the data were processed

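RNA libraries (3 per genotype) and bisulphite libraries (2 per genotype, pooled in the tables) of leaves were grouped by the labels. The authors aligned stranded RNA reads to peach transcript models joined with representative TE copies of both genomes with Bowtie2 through RSEM, and deposited the counts without normalization. The deposited log2 values are regularized logs made by the authors with DESeq2 from the same counts. The authors made the percent methylation values with Bismark 0.19.1 and SeqMonk from cytosines covered at least 3 times, and mapped the hybrid to both genomes separately. A line of the counts that held 2 records was split.

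Tests on the counts used edgeR 4.0.16 under R 4.3.3 (filterByExpr, TMM, quasi-likelihood, all 9 libraries in a single fit), with DESeq2 1.42.0 and limma 3.58.1 on the log2 values as alternatives. Benjamini-Hochberg adjustment was over all 19085 tested features. Labels call the libraries biological replicates, but do not tie them to separate trees, so p-values measure the spread between these libraries. TMM factors lay between 0.943 and 1.05. The floor for detection was 6 counts, or 3 read pairs, per library. Python 3.11.15 with pandas 2.3.3, numpy 2.4.6, scipy 1.17.1 and matplotlib 3.10.9 gave the other values. Scripts were tested on simulated data. An exact permutation test of 3 libraries against 3 cannot go below p = 0.1 and was not used. Representative copies were located by the coordinates in the study's list, and other copies by the consensus number in their names, in the same genome only. All 9 families are named, with the TE family most correlated with 6 of them. The members and lists were chosen with earlier results of these data known. No sequence is shown, since no genome of the builds was used here.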

Additional observations from a re-analysis of the deposited data

How the results depend on the processing

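Between the hybrid and almond, 3 families were called; a test against the minimum fold, an adjusted p under 0.01 and limma on the log2 values each called 1, and leaving out each library called 1 to 2. TE families on their own gave 4, adding TIR_8712, and a fit of only 2 genotypes gave 3, losing TIR_3706 and adding TIR_11258. With limma, TIR_1970 (0.66, adjusted p = 0.00304) and TIR_11800 (−0.95, adjusted p = 0.000411) missed only the fold minimum. Over all 19085 features the main test called 1453, or 919 at an adjusted p under 0.01. The test against the minimum fold called 690 and limma 772. TE families on their own gave 22 of 48, and a fit of 2 genotypes 1435 of 18200. Between the hybrid and peach, 2 were called; the test against the minimum fold, an adjusted p under 0.01 and a fit of only 2 genotypes each called 1, and leaving out each library called 1 to 2. DESeq2, halved counts and TE families on their own gave 3, adding TIR_3706. With limma 2 were called: TIR_3706 was added, and TIR_11800 missed only the fold minimum (log2 fold change 0.82, adjusted p = 0.00137). Over all 19085 features the main test called 1433, or 847 at an adjusted p under 0.01. The test against the minimum fold called 593, DESeq2 1827 and limma 745. TE families on their own gave 23 of 48, halved counts 1502 of 18035 and a fit of 2 genotypes 1454 of 18350. Between almond and peach, 3 were called, 3 to 4 with a library left out, and 4 with TE families on their own, adding TIR_9813. With limma 2 were called, and TIR_1970 (−0.34, adjusted p = 0.0420) missed only the fold minimum. Over all 19085 features the main test called 4105 and limma 2146, and TE families on their own gave 33 of 48. Against the mean of the parents, 0 were called. With DESeq2, without a filter, with halved counts, with TE families only and with limma on the log2 values, 1 was called (TIR_3706). Over all 19085 features the main test called 757, DESeq2 1035 and limma 295. Without a filter 841 of 22334 were called, with halved counts 761 of 18035 and with TE families only 15 of 48. Same-numbered libraries of the hybrid and almond correlated at 0.17, −0.12 and 0.27 in their deviations from the genotype means. Differently numbered ones correlated at −0.31 to 0.19. These values, from 3 libraries per genotype, cannot show whether the replicate numbers pair the libraries. With a replicate block, 2, 2 and 3 families were called in the 3 pairwise comparisons, where 1343, 994 and 3534 of 19085 features were. Against the mean of the parents 0 were called, where 606 features were. The peach libraries are numbered 1, 3 and 4. Number 4 therefore holds only peach library 4, and in this fit that library adds nothing to the comparisons with peach.

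Changes of sign touched only log2 fold changes near 0 that were never called. With the replicate block, TIR_10158 was −0.26 against peach, −0.12 for almond against peach and −0.20 against the mean of the parents, and TIR_12324 was −0.025 and −0.044 against peach and the mean. With at least 50 counts in 3 libraries TIR_10158 was −0.0028 against the mean, and −0.0028 with limma; that filter removed TIR_1970. Leaving out each library, TIR_10158 ranged from −0.49 to 0.16 against almond, −0.19 to 0.38 against peach and −0.34 to 0.23 against the mean. TIR_12324 ranged from −0.13 to 0.030, −0.0031 to 0.45 and −0.033 to 0.19 in the same comparisons, TIR_3304 from −0.50 to 0.021 for almond against peach, and TIR_9813 from −0.21 to 0.15 against the mean. The cause was not tested. The shares of consensus copies under 5% CHG moved to 17.5% in almond and 21.0% in peach when only copies under 2500 bp were taken, a choice made after seeing the data. Weighted by copy length, the mean CHH difference on peach copies was −0.134 points. All families but TIR_3706 and TIR_11258 had at most 108 read pairs in a library, and the depth behind each methylation value is unknown.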
